A study of Mus musculus with 8 samples.

Results

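Oxidative phosphorylation genes were taken by name from a microarray series in mouse J1 embryonic stem cells. They are the genes whose symbol begins with Nduf, with Sdh and then a, b, c or d, with Uqcr, with Cox and then a digit, or with Atp5. Only probe sets annotated to a single symbol were used, and where a gene had several, the one with the highest mean over the 8 arrays stood for it. The rule gave 93 of the 12394 genes measured, through 171 probe sets, and used no comparison between groups. Of the 93, 79 encode subunits (34 of complex I, 4 of complex II, 8 of complex III, 16 of complex IV and 17 of complex V) and 14 encode assembly factors, which help to build a complex without staying in it.

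The respiratory chain passes electrons from NADH through complex I, or from succinate through complex II, to complex III and then to complex IV, cytochrome c oxidase, which hands them to oxygen. Complexes I, III and IV pump protons across the inner mitochondrial membrane, and complex V, the ATP synthase, lets them flow back and makes ATP. Naive mouse stem cells respire as well as ferment glucose, and cells that leave this state for the primed epiblast state are known to rely more on glycolysis.

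The series asked what changes in stem cells when Fbxl19, an F-box protein with a CXXC domain that binds unmethylated CpG DNA, is knocked down. Each of 4 groups had 2 arrays: J1 cells on day 4 of differentiation, J1 cells with Fbxl19 hairpin shRNA1, J1 cells with Fbxl19 hairpin shRNA2, and J1 cells with a control hairpin, shControl. One growth text covers all samples, with gelatin-coated dishes, fetal bovine serum and leukemia inhibitory factor, and the labels state neither how differentiation was carried out, nor whether the day 4 cells carried a hairpin, nor how hairpins were delivered. Nor is it stated that the arrays of a group stem from different cultures, and the p-values below therefore rest on a spread that may be technical alone.

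No probe set was annotated to Fbxl19 (0 of 22690), so the knockdown was not checked here. Day 4 cells carried lower levels of stem cell genes: 7 of 10 markers fell, among them Nanog, and 5 of 5 markers of epiblast-like cells rose, among them Fgf5, while 0 of 5 endoderm, 0 of 5 muscle and 0 of 5 fibroblast markers changed. Of 4 primitive streak and mesoderm markers 1 rose, Eomes, by 2.70, and of 4 neural markers 1 rose, Zic1, by 0.71, though its level lay below the lower quartile on all 8 arrays. The quartiles of shControl replicate 2 (3.79, 5.81 and 8.18 on the log2 scale) lay outside those of every other array. As a sign of RNA quality, the actin control probes at the 3' end exceeded those at the 5' end by 0.73 and 0.65 on day 4, by 0.70 to 0.76 under the hairpins against Fbxl19, and by 0.60 and 0.54 in shControl. For the Gapdh control probes the same difference was 0.26 and 0.20 on day 4 and 0.17 and 0.26 in shControl. Under the hairpins against Fbxl19 it was 0.18 to 0.27, so the groups overlapped. The part of RNA quality in the results was not tested.

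On day 4, 10 of the 93 genes fell against shControl and 0 rose (limma, adjusted p under 0.05 over all 12394 genes). At an unadjusted p under 0.05, 1 gene was higher and 16 were lower, with a background of 13.6% and 15.6%. Across all genes 8.73% fell and 7.67% rose, so that the share of oxidative phosphorylation genes that fell, 10.8%, lay near the background. The steepest falls were those of Cox6b2 and Cox7a1, tissue-restricted subunits of cytochrome c oxidase, at 2.82-fold and 2.55-fold. On day 4 replicate 1 their signals, 5.35 and 5.39, lay below the array median of 5.70. On replicate 2 they were at 5.75 and 6.11, above the array median of 5.70. Whether either gene was still expressed on day 4 cannot be told from such values. The other 8 genes fell by less than 2-fold. They were Sdhaf1, Atp5g1, Ndufv3, Uqcr10, Uqcrq, Ndufaf5, Uqcrc1 and Ndufb10. The arrays hold bulk RNA, so fewer cells of a type and less RNA per cell cannot be told apart.

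The 93 differences had a median of -0.13 on the log2 scale, against -0.00 over all genes. They spread less than those of all genes, with an SD of 0.30 against 0.61, and 2.15% of the oxidative phosphorylation genes changed by 2-fold or more, against 7.47% of all genes. Only 29 of the 93 lay above 0, and of all genes 50.0% did. Levels on both day 4 arrays lay below both shControl arrays for 38 of the 93 (40.9%, background 26.3%) and above both for 6 (6.45%, background 24.1%). Counted relative to the shControl mean on each array, the median of the 93 genes was -0.11 and -0.13 on the day 4 arrays, 0.03 and 0.02 on the shRNA1 arrays, 0.04 and 0.02 on the shRNA2 arrays, and -0.10 and 0.10 on the shControl arrays. The lower of the shControl medians thus came close to the day 4 medians.

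**Figure D1:**
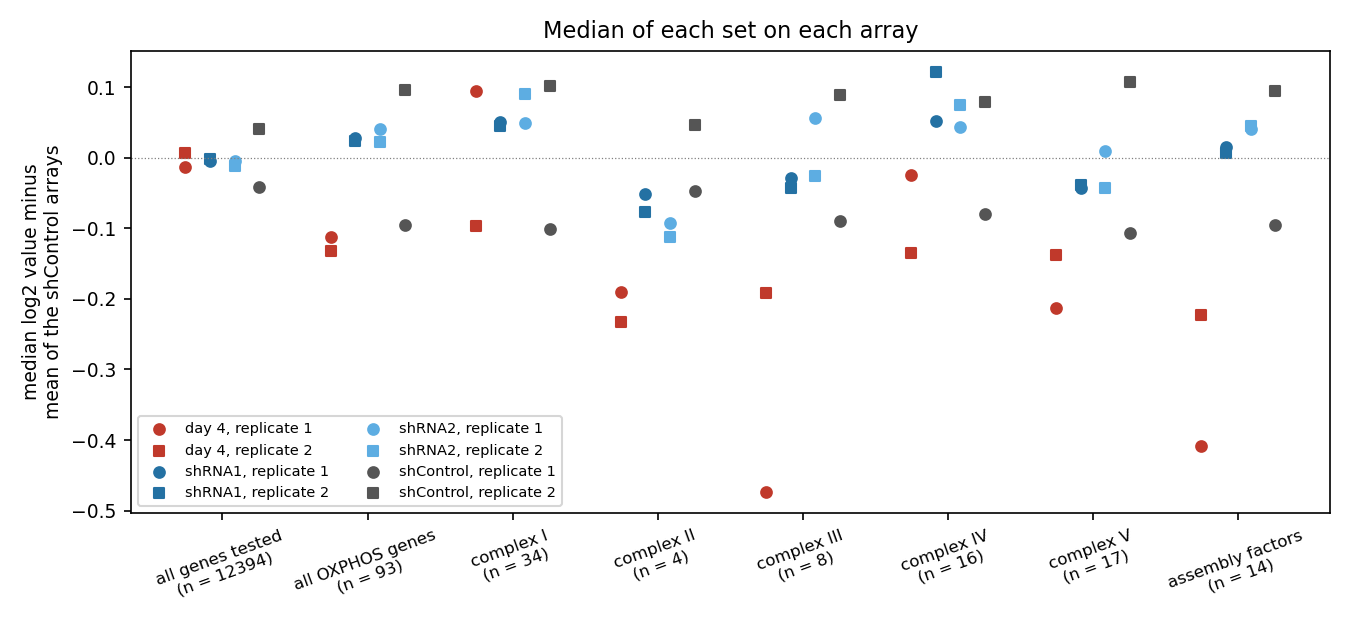
Median log2 level of each complex's genes on each array, relative to the mean of the shControl arrays, with 1 point per array and the groups day 4, shRNA1, shRNA2 and shControl from left to right. Over all 93 genes the day 4 arrays sit at -0.11 and -0.13 and the shControl arrays at -0.10 and 0.10, and the lowest point, -0.47, is complex III on day 4 replicate 1. Circles are replicate 1 and squares replicate 2.

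Medians by complex ran from -0.33 to 0.02 on day 4. Complex I had a median of 0.02, with 18 of 34 subunits above 0 and 2 that fell. Relative to the shControl mean, its median was 0.09 on day 4 replicate 1 and -0.10 on replicate 2. Its 6 core subunits, most of which carry redox centres, had a median of -0.21, and its 28 accessory subunits had a median of 0.02. Complex II had a median of -0.22, with all 4 subunits below 0 and 0 called. Complex III had the lowest median, -0.33, with 1 of 8 subunits above 0 and 3 that fell. That rank rested on day 4 replicate 1, where its median relative to the shControl mean was -0.47. On replicate 2 it was -0.19, and complex II (-0.23) and the assembly factors (-0.22) were lower. Complex IV had a median of -0.03, with 6 of 16 above 0 and 2 that fell. Complex V had a median of -0.22, with 3 of 17 above 0 and 1 that fell, and its F1 head (-0.13, 5 genes) and its membrane and stalk parts (-0.23, 12 genes) both had a median below 0. The 14 assembly factors had a median of -0.26, with 1 above 0 and 2 that fell. Differences between the complexes were not tested.

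**Figure D2:**
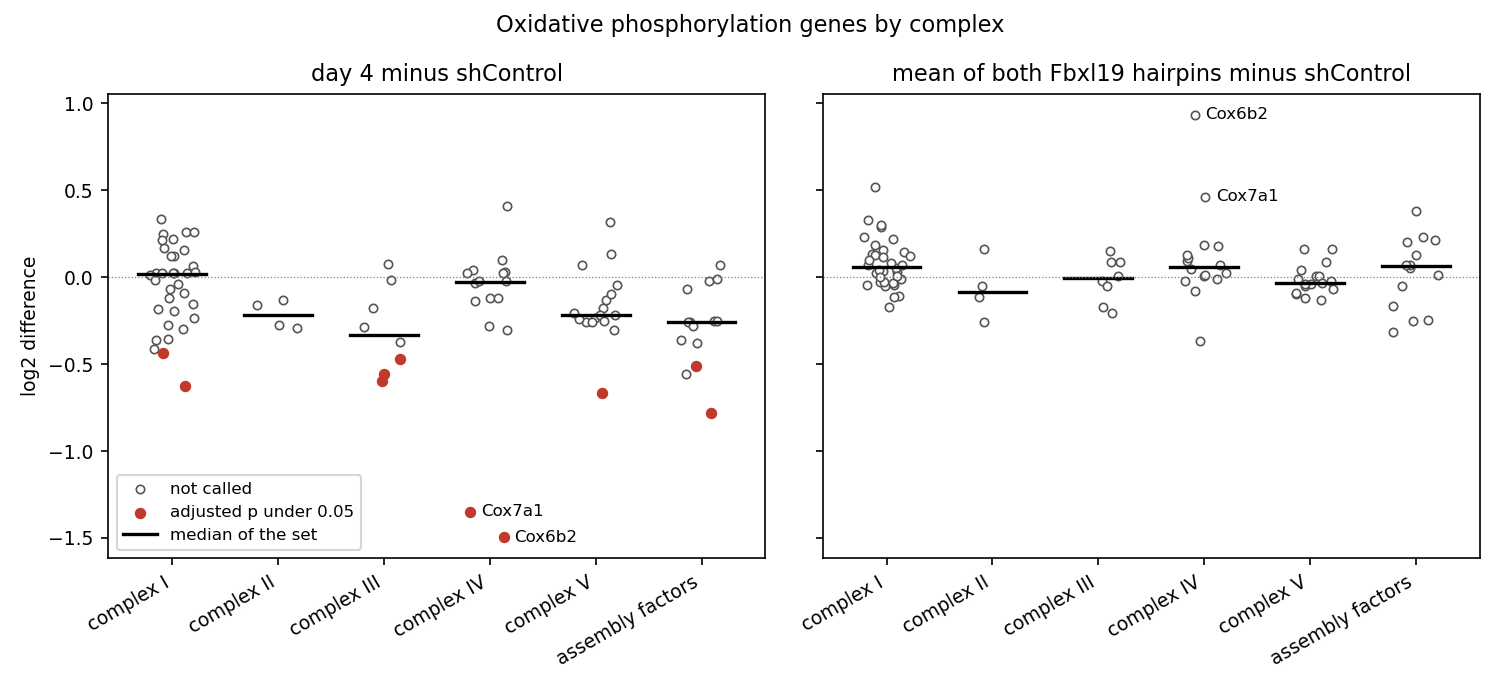
Log2 difference of each gene from shControl, by complex and for the assembly factors, with 1 point per gene, filled where limma called it, for day 4 and for the mean of both Fbxl19 hairpins. On day 4 the points of complex III and the assembly factors lie mostly below 0 and those of complex I on both sides of it, and no gene is called in the knockdown panel.

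Cox6b2 encodes the form of subunit VIb known from the testis, in place of the widely expressed Cox6b1. Its level was 5.35 and 5.75 on the day 4 arrays, 8.04 and 8.16 on the shRNA1 arrays, 7.65 and 8.07 on the shRNA2 arrays, and 6.95 and 7.14 on the shControl arrays. The day 4 arrays were the lowest of all and the 4 knockdown arrays the highest, with no overlap between these and shControl. On day 4 it fell by 1.49 ± 0.19 on the log2 scale (SE, limma adjusted p = 0.000897). The fall was called in 20 of 20 alternative analyses, with values of -2.12 to -1.29 and adjusted p of up to 0.0192.

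Cox7a1 encodes the form of subunit VIIa known from heart and skeletal muscle, in place of Cox7a2. Its level was 5.39 and 6.11 on the day 4 arrays, 7.52 and 7.77 on the shRNA1 arrays, 7.33 and 7.63 on the shRNA2 arrays, and 6.87 and 7.32 on the shControl arrays. Both day 4 arrays were below all 6 undifferentiated arrays. It fell by 1.35 ± 0.25 on day 4 (SE, limma adjusted p = 0.00719), and without shControl replicate 2 the change was -1.12 with an adjusted p of 0.0839. The mean level of the 5 muscle markers was 4.04 and 4.46 on day 4 and 3.92 and 3.81 in shControl, and 2 of the 5 lay below the lower quartile on all 8 arrays.

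The widely expressed counterparts of these genes did not pass the test. Cox6b1 was at 12.13 and 12.16 on the day 4 arrays and at 12.24 and 12.32 on the shControl arrays, a difference of -0.14 ± 0.13 (SE, limma adjusted p = 0.536). Cox7a2 was at 12.62 and 12.78 on the day 4 arrays and at 12.67 and 12.76 on the shControl arrays, a difference of -0.02 ± 0.13 (SE, limma adjusted p = 0.940). The Cox6b1 arrays did not overlap between the groups and the Cox7a2 arrays did. The third gene of the VIIa family, Cox7a2l, encodes a protein known for joining complexes III and IV into supercomplexes. It had the highest difference of all 93 genes on day 4. Its level was 11.68 and 11.44 on the day 4 arrays, 11.24 and 11.26 on the shRNA1 arrays, 11.08 and 11.10 on the shRNA2 arrays, and 11.08 and 11.21 on the shControl arrays. Both day 4 arrays were above all others, with a difference from shControl of 0.41 ± 0.14 (SE, limma adjusted p = 0.0771) and values of 0.37 to 0.43 over its 3 probe sets. It was called, higher, in 5 of 20 alternative analyses. With all 6 undifferentiated arrays as the reference it rose by 0.39 ± 0.11 (SE, limma adjusted p = 0.0336). The other calls came with eBayes trend and robust settings, with centred arrays, without day 4 replicate 2, and without shControl replicate 2 in that reference.

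**Figure D3:**
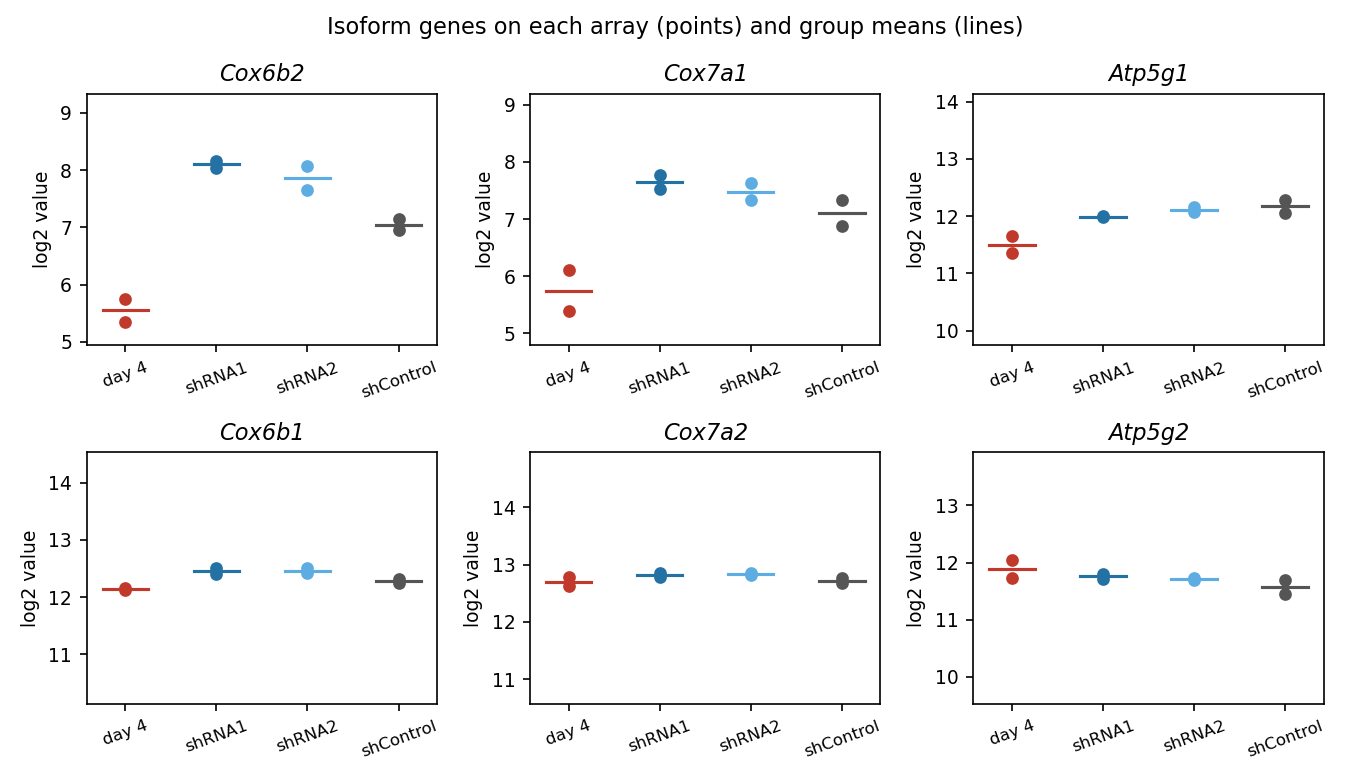
Log2 level on each array for pairs of genes that encode alternative forms of a cytochrome c oxidase subunit (Cox6b2 above Cox6b1, Cox7a1 above Cox7a2) or the same ATP synthase subunit (Atp5g1 above Atp5g2). Points are arrays, lines are group means, and groups run day 4, shRNA1, shRNA2, shControl. Cox6b2 at 5.35 and 5.75 and Cox7a1 at 5.39 and 6.11 are lowest on day 4, while Cox6b1 and Cox7a2 stay within a narrow band.

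For the other alternative forms the day 4 values were small. Against shControl the difference was -0.12 for Cox4i1 and 0.10 for Cox4i2, -0.12 for Cox6a1 and 0.02 for Cox6a2, and -0.28, -0.02 and 0.02 for Cox8a, Cox8b and Cox8c. None of these 7 passed the test, and signal brightness does not compare levels between their probes. Cox4i2, Cox6a2 and Cox8b had means over the 8 arrays of 4.69, 5.53 and 4.16, below the median of every array. Whether these genes were expressed cannot be told from such values. Ndufa4, once assigned to complex I and now known as a complex IV subunit, differed by 0.02. By its symbol it is counted here among the 34 genes of complex I.

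The promoters of both genes that fell most, and of their widely expressed counterparts, are given here because the CXXC domain of Fbxl19 reads CpG. Each is the 250 bases before the start in RefSeq (GRCm38.p6), on the gene's own strand, with each CG in capitals. Cox6b2 lies at chr7:4753095-4753344 on the minus strand, Cox7a1 at chr7:30183921-30184170 on the plus strand, Cox6b1 at chr7:30626115-30626364 on the minus strand and Cox7a2 at chr9:79759854-79760103 on the minus strand.
Cox6b2: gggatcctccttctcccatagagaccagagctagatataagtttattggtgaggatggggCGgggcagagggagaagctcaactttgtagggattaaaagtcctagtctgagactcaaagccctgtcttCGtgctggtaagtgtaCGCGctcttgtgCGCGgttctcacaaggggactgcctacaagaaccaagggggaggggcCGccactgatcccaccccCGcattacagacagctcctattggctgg
Cox7a1: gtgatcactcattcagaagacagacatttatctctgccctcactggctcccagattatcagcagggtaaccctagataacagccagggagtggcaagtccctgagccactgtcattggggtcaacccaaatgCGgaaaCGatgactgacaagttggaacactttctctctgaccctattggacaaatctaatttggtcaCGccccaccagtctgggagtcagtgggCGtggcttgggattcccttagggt
Cox6b1: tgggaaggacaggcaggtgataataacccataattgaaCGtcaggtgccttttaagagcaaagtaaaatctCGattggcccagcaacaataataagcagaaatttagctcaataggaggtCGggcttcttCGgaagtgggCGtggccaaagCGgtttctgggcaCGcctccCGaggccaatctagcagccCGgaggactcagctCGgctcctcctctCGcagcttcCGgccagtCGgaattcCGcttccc
Cox7a2: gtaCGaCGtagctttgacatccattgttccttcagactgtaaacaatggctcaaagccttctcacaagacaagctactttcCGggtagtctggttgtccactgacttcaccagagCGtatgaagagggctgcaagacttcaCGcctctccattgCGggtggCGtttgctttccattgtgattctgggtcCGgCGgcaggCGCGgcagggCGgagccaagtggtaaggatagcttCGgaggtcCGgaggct
The window holds 8 CpG in Cox6b2 and 4 in Cox7a1, against 14 in Cox6b1 and 14 in Cox7a2. A window was found for 77 of the 93 genes, with a median of 15 CpG and a range of 1 to 39, and for 9883 of all genes measured, with a median of 14 and quartiles of 6 and 21. Only Cox8b, with 1, had fewer CpG than Cox7a1 and Ndufc2, with 4 each. The 9 genes with a window that fell on day 4 had a median of 8 and a range of 4 to 17. These are descriptions of the sequence, and binding was not measured.

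Motifs of factors known to drive respiratory genes were searched on both strands of the same windows. The core motif of NRF1, which leaves 1 base free, was in 10 of the 77 (13.0%) and in 6.93% of all windows. The ETS letters CCGGAAG, read by GABP, were in 15 (19.5%) and in 11.6% of all windows, and 3 windows held both of these motifs. The YY1 letters AAGATGGC were in 1 (1.3%) and in 1.79% of all windows. Of the 9 windows of genes that fell on day 4, 0 held any of the 3 motifs, which says only that these letters are not in these windows.

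In complex I, Ndufv3 and Ndufb10 fell. Ndufv3, an accessory subunit of the module that takes electrons from NADH, was at 10.70 and 10.75 on the day 4 arrays, 11.68 and 11.94 on the shRNA1 arrays, 11.45 and 11.64 on the shRNA2 arrays, and 11.19 and 11.51 on the shControl arrays. It fell by 0.63 ± 0.16 (SE, limma adjusted p = 0.0302), with both day 4 arrays below all others. Ndufb10, an accessory subunit of the membrane arm, was at 9.99 and 10.02 on the day 4 arrays, 10.55 and 10.48 on the shRNA1 arrays, 10.64 and 10.64 on the shRNA2 arrays, and 10.45 and 10.44 on the shControl arrays. It fell by 0.43 ± 0.12 (SE, limma adjusted p = 0.0415), again without overlap. The membrane-arm subunit Ndufb6 had the highest difference of complex I, 0.33 ± 0.24 (SE, limma adjusted p = 0.416). Its level was 11.59 and 11.21 on the day 4 arrays and 11.43 and 10.70 on the shControl arrays, which overlapped. Its other probe set gave -0.13, and only the first had shControl replicate 2 far below replicate 1.

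Among assembly factors, Sdhaf1 and Ndufaf5 fell. Sdhaf1, which helps the iron-sulfur subunit of complex II to mature, was at 6.66 and 7.09 on the day 4 arrays, 7.93 and 7.77 on the shRNA1 arrays, 7.92 and 7.83 on the shRNA2 arrays, and 7.58 and 7.72 on the shControl arrays. All day 4 values were below all others, and it fell by 0.78 ± 0.17 (SE, limma adjusted p = 0.0130). Ndufaf5, an enzyme that modifies a core subunit of complex I, was at 7.97 and 7.86 on the day 4 arrays, 8.15 and 8.14 on the shRNA1 arrays, 8.16 and 8.25 on the shRNA2 arrays, and 8.33 and 8.52 on the shControl arrays. It fell by 0.51 ± 0.13 (SE, limma adjusted p = 0.0305), and its knockdown arrays lay between day 4 and shControl. The complex II subunits themselves differed by -0.13 (Sdha), -0.29 (Sdhb), -0.16 (Sdhc) and -0.28 (Sdhd), with 0 called.

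Complex III held 3 genes that fell. Uqcr10, a small subunit without a redox centre, was at 11.31 and 11.39 on the day 4 arrays, 11.89 and 11.92 on the shRNA1 arrays, 12.00 and 11.91 on the shRNA2 arrays, and 11.77 and 12.13 on the shControl arrays. It fell by 0.60 ± 0.15 (SE, limma adjusted p = 0.0267), and its other probe sets gave -0.61 and -0.62. Uqcrq, another small subunit, was at 11.15 and 11.24 on the day 4 arrays, 11.69 and 11.70 on the shRNA1 arrays, 11.72 and 11.70 on the shRNA2 arrays, and 11.60 and 11.90 on the shControl arrays. It fell by 0.56 ± 0.14 (SE, limma adjusted p = 0.0281), while its dimmer probe sets gave -0.27 to 0.13. The day 4 values of both genes lay below all 6 undifferentiated arrays.

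Uqcrc1, a core protein of complex III, was at 11.30 and 11.31 on the day 4 arrays, 11.54 and 11.51 on the shRNA1 arrays, 11.60 and 11.62 on the shRNA2 arrays, and 11.65 and 11.91 on the shControl arrays. Both day 4 arrays were the lowest, and it fell by 0.47 ± 0.14 (SE, limma adjusted p = 0.0454). The other core protein gene, Uqcrc2, was at 11.40 and 11.29 on the day 4 arrays and at 11.34 and 11.21 on the shControl arrays, and differed by 0.07 (limma adjusted p = 0.778). Its other probe set gave -0.30, with 10.90 and 11.00 on the day 4 arrays, below 11.17 and 11.34 on the shControl arrays. Uqcrh, the hinge protein, was at 10.16 and 11.05 on the day 4 arrays and at 10.98 and 10.97 on the shControl arrays, so that its partner arrays on day 4 lay on both sides of the control.

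In complex V, Atp5g1 fell. It is 1 of 3 genes (with Atp5g2 and Atp5g3) that encode the same mature c subunit of the rotor ring, with different import sequences. Atp5g1 was at 11.36 and 11.65 on the day 4 arrays, 12.00 and 11.98 on the shRNA1 arrays, 12.15 and 12.07 on the shRNA2 arrays, and 12.06 and 12.28 on the shControl arrays. It fell by 0.67 ± 0.15 (SE, limma adjusted p = 0.0157), with no overlap. Atp5g2 was at 12.05 and 11.73 on the day 4 arrays and at 11.44 and 11.69 on the shControl arrays, a difference of 0.32 ± 0.15 (SE, limma adjusted p = 0.213). Its day 4 arrays were above both control arrays, and Atp5g3 differed by -0.04. The 5 genes of the F1 head, Atp5a1, Atp5b, Atp5c1, Atp5d and Atp5e, differed by -0.17, -0.13, -0.10, -0.26 and 0.07, with 0 called.

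**Figure D4:**
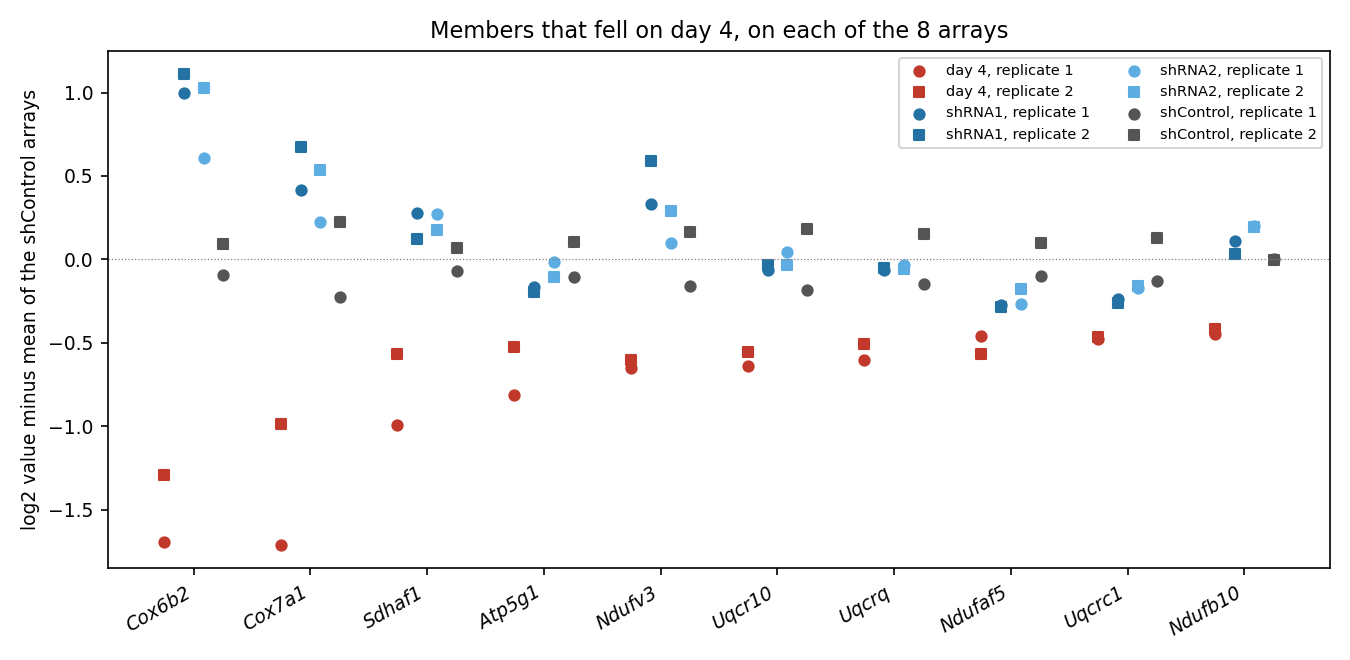
Log2 level on each array minus the mean of the shControl arrays, for the 10 genes that fell on day 4, side by side in 1 panel. Groups run day 4, shRNA1, shRNA2, shControl within each gene, with 1 point per array. Circles are replicate 1 and squares replicate 2. For each of the 10 genes both day 4 points lie below all 6 undifferentiated points.

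The count of 10 rested on how the spread was estimated and on single arrays. With the day 4 and shControl groups alone in the fit, 2 genes were called, Cox6b2 and Cox7a1, and without shControl replicate 2 only Cox6b2 was. Set against all 6 undifferentiated arrays, day 4 had 13 genes that fell and 1 that rose, against a background of 12.1% and 10.7% of all genes. Of the 10, 8 were among the 13, joined by Sdhaf4, Ndufs5, Cox20, Ndufaf1 and Ndufv1, while Ndufaf5 and Uqcrc1 missed the threshold with limma adjusted p of 0.0504 and 0.0615. The 95% interval of the day 4 difference lay wholly within 2-fold for 89 of the 93 genes and wholly within 1.5-fold for 51.

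No gene of the set passed the test under either hairpin. In the mean of both hairpins against shControl 0 of the 93 were called by limma, with a background of 0.0726% of all genes, and 7 of the 93 had an unadjusted p under 0.05 (7.53%, background 8.42%). The 93 differences had a median of 0.03, against -0.00 over all genes, and ran from -0.37 to 0.93. The 95% interval lay wholly within 1.5-fold for 84 of the 93 genes. All 4 knockdown arrays lay above both shControl arrays for 16 genes (17.2%, background 9.53%) and below both for 8 (8.60%, background 10.6%).

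Cox6b2 had the highest difference in the knockdown, 0.93 ± 0.16 (SE, limma adjusted p = 0.119), with its 4 knockdown arrays at 7.65 to 8.16 and its shControl arrays at 6.95 and 7.14. Under shRNA1 it was 1.05 ± 0.19 (SE, limma adjusted p = 0.0678) and under shRNA2 0.82 ± 0.19 (SE, limma adjusted p = 0.408). It was called, higher, in the mean of both hairpins and under shRNA1 with the compared groups alone in the fit (adjusted p = 0.0384 and 0.0101) and with the replicate number as a block (adjusted p = 0.0422 and 0.0305). Over all alternatives the limma adjusted p ran from 0.0384 to 0.509 for the mean of both hairpins. The day 4 comparison shares the shControl arrays with these.

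Cox7a1 was at 7.33 to 7.77 on the 4 knockdown arrays and at 6.87 and 7.32 on the shControl arrays, a difference of 0.46 ± 0.22 (SE, limma adjusted p = 0.620). Its knockdown arrays were all above the controls, replicate 1 of shRNA2 only just so. Cox20, an assembly factor of complex IV that holds its COX2 subunit, was at 9.25 and 9.04 on the shRNA1 arrays, 9.29 and 9.23 on the shRNA2 arrays, and 8.85 and 8.80 on the shControl arrays. It differed by 0.38 ± 0.14 (SE, limma adjusted p = 0.520) with no overlap. Ndufa3, an accessory subunit of complex I, differed by 0.29 ± 0.11 (SE, limma adjusted p = 0.556), with levels of 11.42 to 11.52 under knockdown, above the shControl values of 11.13 and 11.22.

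On the lower side, Cox7c, a small complex IV subunit, was at 4.41 and 4.51 on the shRNA1 arrays, 4.50 and 4.66 on the shRNA2 arrays, and 4.72 and 5.06 on the shControl arrays. It differed by -0.37 ± 0.14 (SE, limma adjusted p = 0.549), and its knockdown arrays were all below the controls. The Cox7c signal was dim, with a mean of 4.63 over the 8 arrays, under the median of each array. The other Cox7c probe set was dimmer still, with a mean of 3.16. From such values it cannot be told whether Cox7c RNA was measured. Sdhd, a membrane anchor of complex II, differed by -0.26 and Ndufaf5 by -0.25 in the mean of both hairpins, with 0 overlap in either. The other probe set of Sdhd gave -0.015, with its shControl arrays, at 8.24 and 7.22, on both sides of its knockdown arrays. With each hairpin alone, 0 of the 93 were called (background 0.242% under shRNA1 and 0% under shRNA2). An unadjusted p under 0.05 was found for 5 genes under shRNA1 (background 9.83%) and 2 under shRNA2 (background 5.1%). Ndufv3 (0.46), Ndufaf4 (-0.39) and Ndufaf5 (-0.28) were among the extremes under shRNA1, and Ndufc1 (0.31), Sdhd (-0.23) and Ndufaf5 (-0.22) under shRNA2.

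Between the hairpins, 0 of the 93 differed by the test (background 0.105%), and 1 had an unadjusted p under 0.05 (background 5.15%). That gene was Ndufaf3, an assembly factor of complex I, at 8.86 and 8.78 on the shRNA2 arrays and at 8.50 and 8.41 on the shRNA1 arrays. The shRNA2 arrays were above both shRNA1 arrays, a difference of 0.36 ± 0.13 (SE, limma adjusted p = 0.826). Ndufaf4 (0.28) and Ndufa5 (0.26) were the other largest positive differences, and Ndufv3 (-0.27), Cox18 (-0.25) and Cox8b (-0.25) the largest negative ones.

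Partner arrays set the precision of all these values. Over the 93 genes the SD of the difference between the arrays of a group was 0.288 on day 4, 0.0934 for shRNA1, 0.131 for shRNA2 and 0.248 for shControl. Across all genes it was 0.408, 0.205, 0.223 and 0.312 in the same order. Replicate 2 of shControl was above replicate 1 for 74 of the 93. The median difference was 0.19 over the 93 genes and 0.082 over all genes. Where a gene had several probe sets above the lower quartile, their shControl partner differences had both signs in 15 of 44 genes and their day 4 differences had 1 sign in 26 of 44. Cox5a, a complex IV subunit, gave 0.04 on day 4 with the probe set kept and -0.23 and -0.03 with its other probe sets.

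Some genes of 5 other mitochondrial lists fell on day 4 as well, and 0 rose, where 8.73% of all genes fell and 7.67% rose. The factors that assemble respiratory complexes but lie outside the name rule had 6 of 22 genes that fell and a median of -0.21. Foxred1, an assembly factor of complex I, fell by 1.11 ± 0.17 (SE, limma adjusted p = 0.00242), with mean levels of 5.85 on the day 4 arrays and 6.95 on the shControl arrays. Bcs1l, which inserts the iron-sulfur protein into complex III, fell by 0.82 ± 0.17 (SE, limma adjusted p = 0.0122), and Ecsit, Uqcc1, Higd2a and Surf1 fell by 0.72, 0.64, 0.63 and 0.58.

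The mitochondrial ribosome had 12 of 74 genes that fell and a median of -0.26, the largest of them Mrps12 (-1.19), Mrpl24 (-0.83), Mrpl17 (-0.78) and Mrpl14 (-0.72). Among electron carriers and exchange proteins 2 of 15 fell, Etfb, which feeds electrons from fatty acid oxidation, by 0.76 and Dhodh, of pyrimidine synthesis, by 0.61, with a list median of -0.06. Of 18 genes of the citric acid cycle 1 fell, Ogdh, by 0.53, with a median of -0.19. Of 16 genes of mitochondrial biogenesis 2 fell, the coactivator Ppargc1b by 0.89 ± 0.16 (SE, limma adjusted p = 0.00553) and the mitochondrial RNA polymerase Polrmt by 0.79 ± 0.16 (SE, limma adjusted p = 0.00962), with a median of -0.13. The counts of 2 of 15, 1 of 18 and 2 of 16 lay near the 8.73% of all genes that fell. Over the 145 genes of these lists 23 fell, where 8.73% of all genes did, and at an unadjusted p under 0.05 there were 42 lower and 2 higher (background 15.6% and 13.6%). In the mean of both hairpins limma called 0 of the 145 (background 0.0726%), and 4 were higher and 6 lower at an unadjusted p under 0.05 (background 4.32% and 4.1%). With shRNA1 alone 0 were called, and 3 were higher and 13 lower at an unadjusted p under 0.05 (background 4.66% and 5.16%). With shRNA2 alone 0 were called, and 4 were higher and 0 lower (background 2.82% and 2.28%).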

How the data were processed

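The deposited values are log2 probe set signals. The submitters' processing notes name RMA, with its version not given in the sources used here. Groups and replicate numbers come from the sample titles, and titles were followed where a free-text label names other Fbxl genes. Probe sets were named through the platform annotation, and all 93 symbols matched RefSeq. A linear model with 1 mean per group was fitted to all 12394 genes with limma 3.58.1 in R 4.3.3 (4 residual degrees of freedom), with Benjamini-Hochberg adjustment over all genes. It was tested on simulated data. Genes named are those called, the extremes of each complex, the 3 smallest p in each direction per hairpin comparison, and alternative subunit forms; others were added as pathway context, after their values were seen. The members and lists were chosen with earlier results of these data known. Arrays have no read depth, so the number of arrays limits the precision. The alternatives were other probe set choices, filters, scalings, weights, fits, references, a replicate block and leaving out each array. Left out were 691 probe sets with several symbols and 1606 without one.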

Additional observations from a re-analysis of the deposited data

Results flagged for a closer look

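Ndufa5, an accessory subunit of complex I, lay on opposite sides of the controls under the hairpins. Its level was 10.27 and 10.27 with shRNA2, 10.08 and 9.93 with shRNA1, and 10.11 and 10.25 with shControl. Both shRNA2 arrays lay above and both shRNA1 arrays below the controls. The difference of shRNA2 and shRNA1 was 0.26 ± 0.16 (SE) and did not pass the test (limma adjusted p = 1.00).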

How the results depend on the processing

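The count of 10 genes that fell on day 4 was 2 with the compared groups alone, 3 with array weights and 6 with a minimum change of 1.5-fold, and the genes called in either direction numbered 1 to 11 when each array was left out in turn (11 without day 4 replicate 2, of which Cox7a2l was higher). The count was 1 without shControl replicate 2, 4 without either shRNA2 array, and 5 without day 4 replicate 1 or either shRNA1 array. With the replicate number as a block it was 10. The replicate numbers share no stated source. The correlation of deviations between same-numbered arrays was 0.50 between shRNA1 and shRNA2, 0.26 between shRNA1 and shControl and 0.23 between shRNA2 and shControl. For day 4 it was -0.02 with shRNA1, -0.08 with shRNA2 and 0.07 with shControl. For the knockdown mean and for shRNA1 the count was 1, Cox6b2, with the compared groups alone and with the replicate block, and 0 to 1 when an array was left out (1 without either day 4 array).

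With arrays not centred, the median of -0.13 on day 4 ran from -0.23 (without shControl replicate 1) to -0.086. Centring of arrays shifted all day 4 differences upward alike, with a median over all genes of 0.063, against -0.00045 as deposited. It thus took the day 4 median of the oxidative phosphorylation genes above -0.086. The knockdown median of 0.03 ran from -0.062 (without shControl replicate 1) to 0.097 (without shControl replicate 2), that of shRNA1 from -0.058 to 0.073 and that of shRNA2 from -0.057 to 0.10, with the same arrays left out. The sign of the hairpin medians therefore turned with 1 control array.

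Some uncalled day 4 differences turned sign. With all 6 undifferentiated arrays as the reference Ndufb6 was -0.010, Uqcrc2 -0.027 and Cox8c -0.062, and without shControl replicate 2 in that reference, a choice made after seeing the data, they were -0.13, -0.048 and -0.14 and Cox6a2 was -0.0073. The mean of its probe sets gave -0.12 for Uqcrc2. Centring of arrays, which shifted all genes alike, gave 0.042 for Cox7a2, 0.042 for Cox8b and 0.021 for Atp5g3. Leaving out 1 array at a time, Ndufb6 ranged from -0.026 to 0.70, Cox4i1 from -0.25 to 0.014, Cox4i2 from -0.22 to 0.42, Cox6a1 from -0.25 to 0.0040, Cox6a2 from -0.15 to 0.19, Cox7a2 from -0.10 to 0.059, Cox8b from -0.29 to 0.24, Cox8c from -0.22 to 0.26, Ndufa4 from -0.093 to 0.14 and Atp5g3 from -0.16 to 0.071. Beyond that common shift by centring, the cause of these changes was not tested.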
